A study of Mus musculus with 14 samples.

Results

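The genes described here are 36 genes of cholesterol synthesis and of fatty acid and glycerolipid synthesis, chosen by gene symbol as genes under the control of the sterol regulatory element-binding proteins (SREBPs) or as their regulators. All 36 were found among the 20193 genes of the deposited table, 19 in the sterol arm and 17 in the lipogenic arm. Expression was measured with single-colour Affymetrix arrays. The cells were HL-1, an established mouse line of atrial heart muscle. They had received siAirn-001.2 (4 arrays), siAirn-001.1 (4 arrays) or a scrambled control siRNA, siScramble (6 arrays). Each siRNA was given at 10 nM with a lipid transfection reagent. All groups shared 1 cell line, 1 carrier and a medium with fetal bovine serum and norepinephrine. Untransfected cells are not among the groups, and the sources used here do not give the time from transfection to RNA extraction or what sets siAirn-001.2 and siAirn-001.1 apart. Arrays of a group are described as biological replicates with no word on separate cultures. The p-values therefore cover the scatter among these arrays, which may be technical.

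Airn, the long non-coding RNA named in both siAirn reagents, was at 11.93, 11.67, 10.71 and 10.85 on the log2 scale in siAirn-001.2 arrays 1 to 4 and at 11.89, 11.82, 10.94 and 10.93 in siAirn-001.1 arrays 1 to 4. The siScramble arrays ran from 11.78 to 12.16 with a median of 12.00. Thus 3 of the 8 siAirn arrays, array 1 of siAirn-001.2 and arrays 1 and 2 of siAirn-001.1, held Airn inside the siScramble range, and each group is named by its label. Neither reagent's Airn change passed after adjustment over all genes in limma (adjusted p = 0.193 for siAirn-001.2 and 0.168 for siAirn-001.1). Of 13 measured atrial cardiomyocyte markers, 11 lay above the median of all genes, while Sln and Gja5 did not. Of the lists for other cell types, 2 of 6 fibroblast, 1 of 4 endothelial, 0 of 3 macrophage, 0 of 5 adipocyte and 0 of 4 hepatocyte markers lay above it, and the mean of the adipocyte list ran from 6.05 to 6.24 in siAirn-001.2, from 6.09 to 6.27 in siAirn-001.1 and from 6.10 to 6.28 in siScramble. The cardiomyocyte list mean ran from 11.2 to 11.4 in siAirn-001.2, from 11.5 to 11.7 in siAirn-001.1 and from 11.2 to 11.4 in siScramble, so it was higher in every siAirn-001.1 array than in any siAirn-001.2 or siScramble array. The endothelial mean ran from 6.84 to 6.97 in siAirn-001.2, from 7.01 to 7.18 in siAirn-001.1 and from 6.81 to 7.10 in siScramble. Fibroblast means (6.81 to 7.06, 6.68 to 7.13 and 6.81 to 7.18 in the same order of groups) and macrophage means (6.54 to 6.67, 6.45 to 6.58 and 6.56 to 6.71) overlapped between siAirn-001.1 and the other groups. Array medians ran from 7.45 to 7.55. In bulk RNA, fewer cells that use a gene and less RNA per cell cannot be told apart.

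Cells make cholesterol from acetyl-CoA by way of mevalonate, isoprenoid units, squalene and lanosterol, and the same acetyl-CoA feeds fatty acids, which are then elongated, desaturated and joined to glycerol. The SREBPs are made as precursors in the membrane of the endoplasmic reticulum. When membrane sterol is low they are carried to the Golgi and cut, and the freed part enters the nucleus and raises transcription of these genes. When sterol is ample, INSIG proteins hold the precursors back. Srebf2 is the main driver of the sterol arm and Srebf1 of the lipogenic arm. In heart muscle, sterols serve membranes, and the malonyl-CoA made by acetyl-CoA carboxylase restrains the entry of fatty acids into mitochondria.

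Promoter windows, from 250 bases before to 50 bases after a RefSeq start site (GRCm38.p6), were available for 27 of the 36 genes. The 5 windows shown belong to genes on which the comparisons turn: Hmgcs1 and Nsdhl, which were lowest in siAirn-001.2 arrays 3 and 4; Cyp51, which differed between the reagents; Ebp, which was called higher with siAirn-001.1 and for the mean of both reagents; and Acacb of the lipogenic arm. Hmgcs1 was added after its values were seen. Each is written 5′ to 3′ on the strand of its gene. Capitals mark the sterol regulatory element TCACNCCAC and the CCAAT box CCAAT, which binds the SREBP partner NF-Y, on either strand.
Hmgcs1, chr13:119690101-119690400, plus strand, with the element and 4 CCAAT boxes: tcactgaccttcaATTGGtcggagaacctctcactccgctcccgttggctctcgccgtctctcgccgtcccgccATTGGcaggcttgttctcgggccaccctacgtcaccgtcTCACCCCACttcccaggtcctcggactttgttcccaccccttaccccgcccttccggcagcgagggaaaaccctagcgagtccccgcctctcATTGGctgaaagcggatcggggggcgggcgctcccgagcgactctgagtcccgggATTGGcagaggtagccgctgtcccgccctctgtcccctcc
Cyp51, chr5:4104648-4104947, minus strand, with 1 CCAAT box: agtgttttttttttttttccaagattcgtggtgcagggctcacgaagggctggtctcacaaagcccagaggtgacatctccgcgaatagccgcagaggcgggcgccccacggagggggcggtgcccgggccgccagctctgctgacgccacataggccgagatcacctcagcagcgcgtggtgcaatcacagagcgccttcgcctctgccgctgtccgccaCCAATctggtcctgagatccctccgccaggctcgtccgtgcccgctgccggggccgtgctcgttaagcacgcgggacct
Nsdhl, chrX:72918271-72918570, plus strand, with 4 CCAAT boxes: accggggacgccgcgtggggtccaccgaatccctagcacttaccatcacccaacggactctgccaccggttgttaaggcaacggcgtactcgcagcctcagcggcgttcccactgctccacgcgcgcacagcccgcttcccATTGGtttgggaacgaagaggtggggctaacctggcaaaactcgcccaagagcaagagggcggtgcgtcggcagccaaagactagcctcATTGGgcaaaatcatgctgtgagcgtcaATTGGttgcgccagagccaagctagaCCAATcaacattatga
Ebp, chrX:8193463-8193762, minus strand, with 2 CCAAT boxes: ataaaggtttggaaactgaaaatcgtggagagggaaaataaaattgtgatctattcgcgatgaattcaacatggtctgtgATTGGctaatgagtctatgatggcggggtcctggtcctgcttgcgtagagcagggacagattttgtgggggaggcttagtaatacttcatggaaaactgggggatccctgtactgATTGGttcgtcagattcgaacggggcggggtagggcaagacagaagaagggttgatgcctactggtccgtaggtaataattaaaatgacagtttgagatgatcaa
Acacb, chr5:114165268-114165567, plus strand, with 1 CCAAT box: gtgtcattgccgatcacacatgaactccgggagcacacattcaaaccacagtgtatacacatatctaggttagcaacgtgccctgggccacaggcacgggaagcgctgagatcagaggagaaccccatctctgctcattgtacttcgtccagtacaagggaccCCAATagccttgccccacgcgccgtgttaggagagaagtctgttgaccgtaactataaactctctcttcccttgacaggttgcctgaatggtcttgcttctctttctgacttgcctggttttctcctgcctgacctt

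A CCAAT box was present in the windows of all 15 sterol genes with a promoter sequence and of 8 of 12 lipogenic genes (Acaca, Elovl6, Fads2 and Lpin1 had none), against 41.9% of the 13390 array genes with a window. The GC box GGGCGG, which Sp1 binds, was present in 14 of 15 sterol and 6 of 12 lipogenic genes, against 53.1% of array genes. For the E-box CACGTG the counts were 4 and 1, against 9.56%. The element TCACNCCAC was found only in the Hmgcs1 window, where it begins at position -137 from the start, against 1.43% of array genes. Both strands were searched, no motif overlapped another among those marked, and genes with several start sites were counted once. Only exact matches to the letters given were searched, so other forms of the sterol regulatory element were not looked for. A match is a description of the letters in the window.

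With siAirn-001.1, 5 members rose against siScramble and none fell: Pmvk and Ebp of the sterol arm and Acss2, Acacb and Dgat2 of the lipogenic arm. This is 13.9% of the members, beside 5.96% of all genes called in either direction in this comparison, 3.43% called higher and 2.53% called lower. After median centring of each array, 794 genes were called higher and 358 lower, against 693 and 510 as deposited, and 6 members rose (Tm7sf2 in addition). The higher cardiomyocyte marker mean of these arrays moved with this comparison, and its part in it was not tested. The median log2 difference was 0.10 in the sterol arm, where 13 of 19 genes lay above 0, and 0.13 in the lipogenic arm, where 12 of 17 did. Over all genes the median was -0.01, with 46.7% above 0. The plot of array values shows these genes.

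Pmvk encodes phosphomevalonate kinase, an early enzyme of the mevalonate steps. It was at 8.73, 8.69, 8.47 and 8.46 in siAirn-001.1 arrays 1 to 4, against 8.09 to 8.41 (median 8.30) in siScramble. All siAirn-001.1 arrays lay above all siScramble arrays, as for 4.68% of all genes (Pmvk, Tm7sf2, Acss2, Fads1 and Dgat2 among the members), and arrays 1 and 2 stood highest. The rise was 0.30 ± 0.08 on the log2 scale (SE, adjusted p = 0.0417 in limma). Ebp encodes the sterol isomerase that shifts a double bond late in cholesterol synthesis. It was at 10.87, 10.73, 10.71 and 10.87 in siAirn-001.1, against 10.38 to 10.72 (median 10.51) in siScramble, so array 3 overlapped the highest siScramble array. The rise was 0.28 ± 0.07 (adjusted p = 0.0276 in limma).

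Acss2, which makes acetyl-CoA from acetate, was at 9.97, 9.95, 9.98 and 10.02 in siAirn-001.1, against 9.60 to 9.83 (median 9.67) in siScramble. The groups did not overlap, and the rise was 0.28 ± 0.08 (adjusted p = 0.0369 in limma). Acacb, the acetyl-CoA carboxylase isoform of heart and muscle that sits at mitochondria, was at 9.35, 9.14, 8.71 and 8.87 in siAirn-001.1, against 8.43 to 8.75 (median 8.62) in siScramble. Its rise of 0.42 ± 0.11 (adjusted p = 0.0348 in limma) was led by arrays 1 and 2, and array 3 lay inside the siScramble range. Dgat2, which adds the last fatty acid to make triglyceride, was at 8.32, 8.45, 8.68 and 8.61 in siAirn-001.1, against 7.96 to 8.23 (median 8.16) in siScramble. The groups did not overlap, arrays 3 and 4 stood highest, and the rise was 0.38 ± 0.08 (adjusted p = 0.00748 in limma). Of these genes, Dgat2 alone passed whichever single array was left out. All-gene calls in these fits ran from 770 to 1259, against 1203 with all arrays (847 without siScramble array 1 and 797 without array 2). Dgat2 was the 1 member called without siScramble array 1, 2 or 4 or siAirn-001.1 array 1. Without siAirn-001.1 array 2 the count was 2 (Dgat2 and Ebp), and without array 4 it was 3 (Dgat2, Acacb and Pmvk). Without the 3 arrays whose Airn lay inside the siScramble range, which left siAirn-001.1 arrays 3 and 4, the count was 3 in a fit that called 1267 of all genes, against 1203 with all arrays: Acss2 (0.31, adjusted p = 0.0474 in limma), Dgat2 (0.51, adjusted p = 0.00349 in limma) and Srebf1 (0.34, adjusted p = 0.034 in limma). There Pmvk was at 0.18 (adjusted p = 0.406), Acacb at 0.19 (0.345) and Ebp at 0.27 (0.112).

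**Figure D1:**
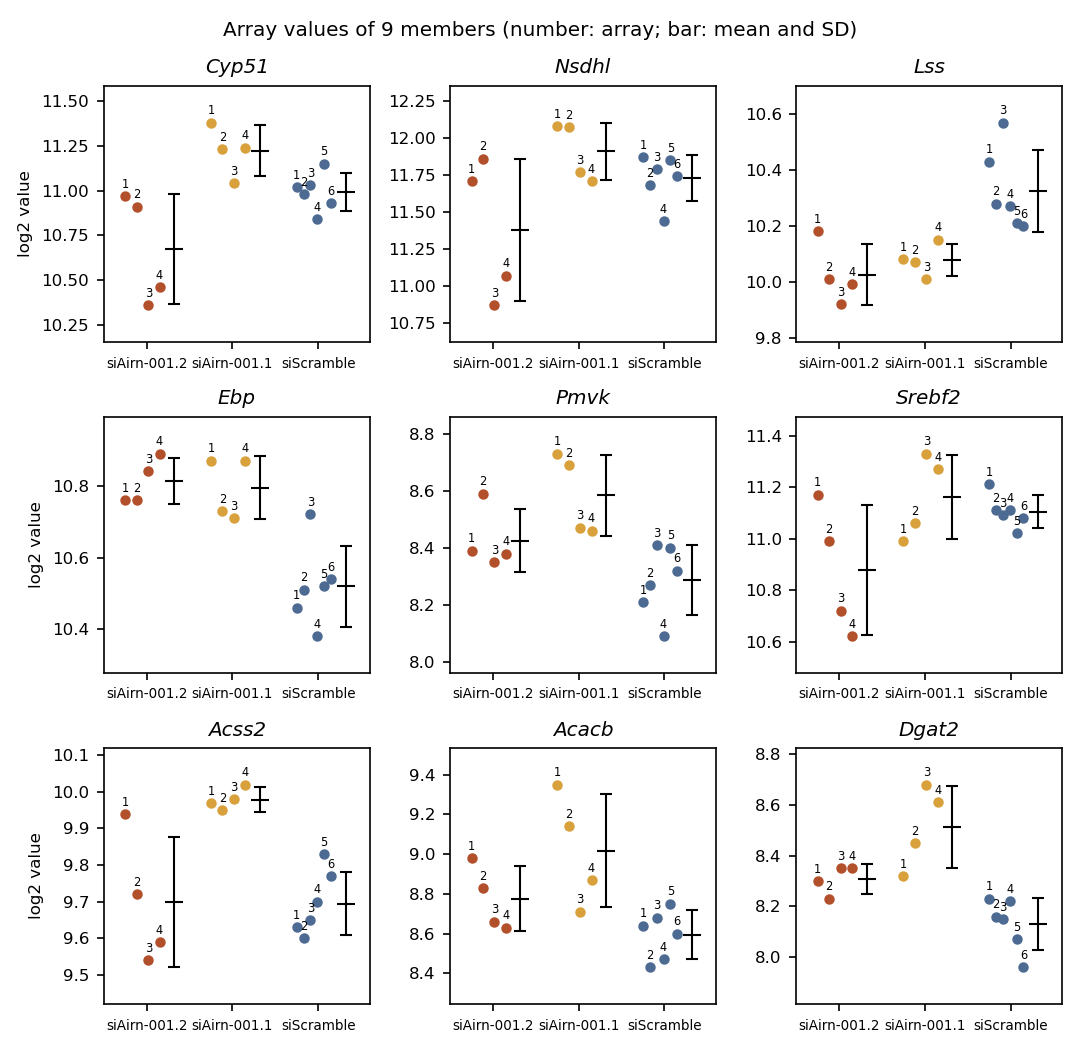
Log2 values of 9 members in every array. Each panel is a gene, with siAirn-001.2, siAirn-001.1 and siScramble from left to right, a numbered point for each array, and a bar for the mean and SD (n = 4, 4 and 6). Cyp51, Nsdhl and Srebf2 were lowest in siAirn-001.2 arrays 3 and 4, and Dgat2 was higher in every siAirn array than in any siScramble array, though siAirn-001.2 array 2 and the highest siScramble array are equal at 2 decimals (8.23).

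With siAirn-001.2, no member passed the threshold against siScramble in limma, where 0.951% of all genes were called, 0.480% higher and 0.470% lower. At an unadjusted p under 0.05 there were 11 of the 36 members, 9 of them sterol genes, against 11.3% of all genes. Among them Ebp and Dgat2 were higher and the others lower. The median log2 difference was -0.20 in the sterol arm, with 15 of 19 genes below 0, and -0.01 in the lipogenic arm, with 9 of 17 below 0, beside 0.00 and 51.1% over all genes. In a fit chosen after the data were seen, arrays 3 and 4 of siAirn-001.2, which held its lowest sterol medians, were left out. The sterol and lipogenic medians were then 0.02 and 0.10. The counts under other settings were 4 with array weights (Cyp51, Lss and Sqle lower, Ebp higher), 1 with the replicate number as a block (Lss lower), 1 without siScramble arrays 5 and 6 (Lss lower), 1 without siScramble array 3 (Ebp higher) and 1 without the 25% of genes with the lowest levels (Ebp higher). The 3-group fit with equal weights called 192 of all genes. Array weights called 969, the block 563, and the fit without siScramble arrays 5 and 6 called 413. Without the genes with the lowest levels 252 were called, and with 1 array left out from 46 to 254.

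Mvd and Nsdhl, the 2 sterol genes with the lowest log2 differences to siScramble in this group, were far apart between its arrays. Mvd, the decarboxylase that ends the mevalonate steps, was at 9.96, 9.90, 9.03 and 8.99 in siAirn-001.2 arrays 1 to 4, against 9.65 to 10.15 (median 9.88) in siScramble. Nsdhl, a dehydrogenase that helps to remove methyl groups from the sterol ring, was at 11.71, 11.86, 10.87 and 11.07, against 11.44 to 11.87 (median 11.77) in siScramble. For both genes arrays 1 and 2 lay inside the siScramble range and arrays 3 and 4 below it. Their log2 differences were -0.41 ± 0.17 and -0.35 ± 0.16 (adjusted p = 0.337 and 0.417 in limma). Hmgcs1, the cytosolic HMG-CoA synthase at the entry of the pathway, was at 10.91, 10.93, 10.12 and 10.25 in siAirn-001.2, against 10.68 to 10.97 (median 10.86) in siScramble (difference -0.28 ± 0.15, adjusted p = 0.554 in limma).

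Sqle, the squalene epoxidase that is a rate-limiting step after squalene, was at 11.23, 11.33, 10.97 and 11.07 in siAirn-001.2, against 11.35 to 11.57 (median 11.46) in siScramble. These groups did not overlap, which held for 2.01% of all genes in this direction (Sqle and Lss among the members). The difference was -0.31 ± 0.08 (adjusted p = 0.0921 in limma). In the lipogenic arm Lpin1, a phosphatidate phosphatase, had the lowest difference, at 10.47, 10.44, 10.13 and 10.28 in siAirn-001.2 against 10.38 to 10.85 (median 10.50) in siScramble (-0.25 ± 0.10, adjusted p = 0.341 in limma). Acacb had the highest, at 8.98, 8.83, 8.66 and 8.63 in siAirn-001.2 against 8.43 to 8.75 in siScramble (0.18 ± 0.11, adjusted p = 0.655 in limma). For the mean of both reagents Acacb rose by 0.30 ± 0.09 (adjusted p = 0.0849 in limma).

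**Figure D2:**
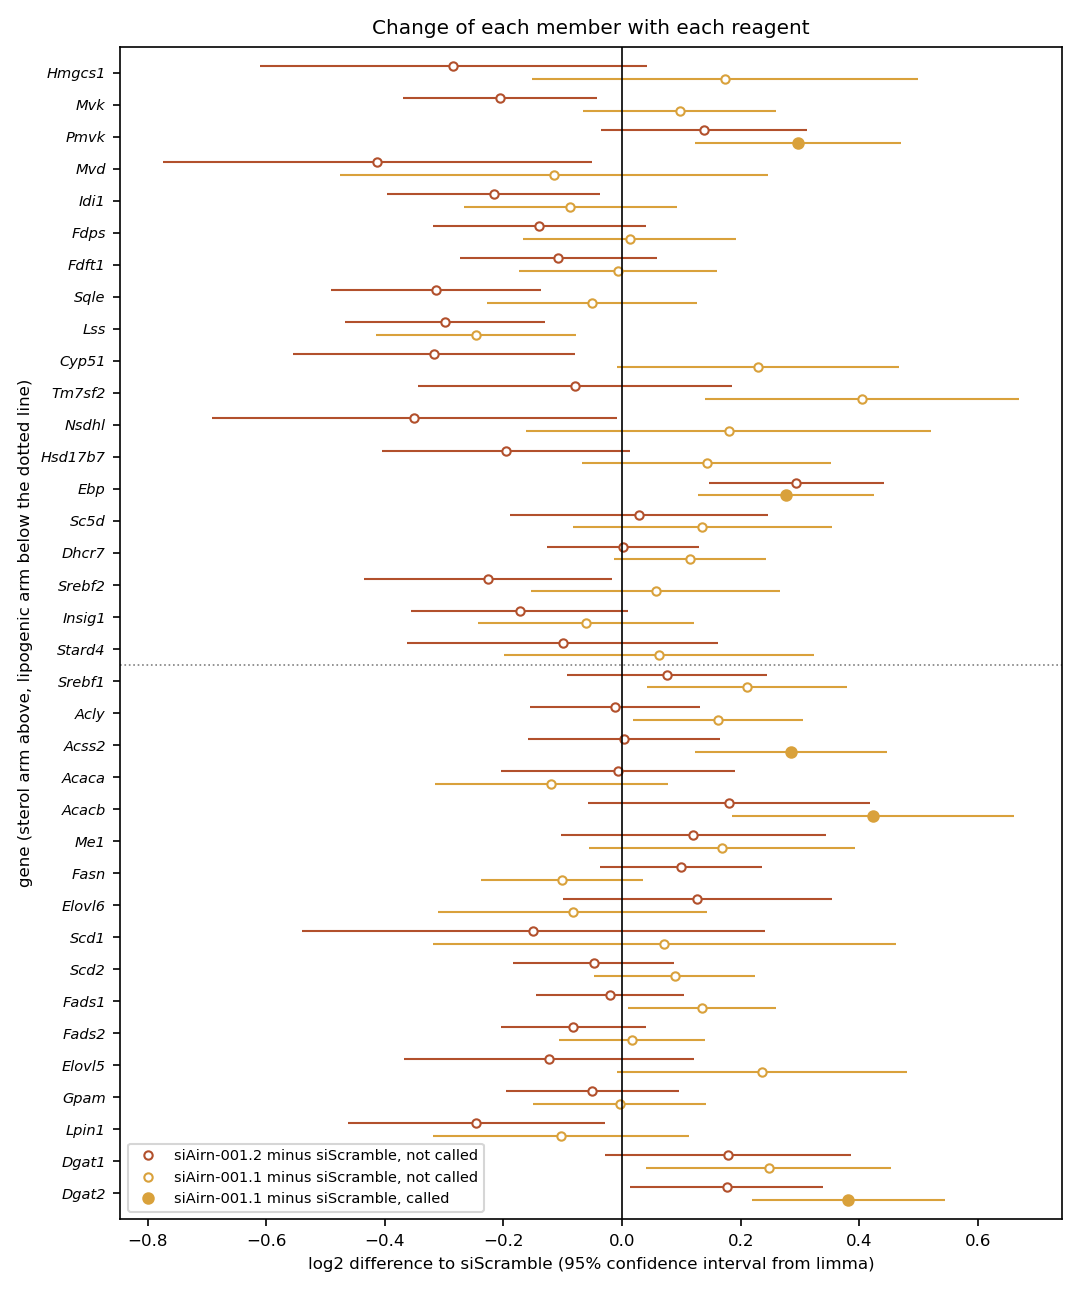
Log2 difference to siScramble of each of the 36 members, with its 95% confidence interval from limma, for siAirn-001.2 (n = 4) and siAirn-001.1 (n = 4) against the same 6 siScramble arrays. Filled points passed an adjusted p of 0.05: 5 with siAirn-001.1 and none with siAirn-001.2.

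Averaged over both reagents, Lss fell and Ebp and Dgat2 rose, which is 8.33% of the members beside 4.13% of all genes (2.15% higher and 1.97% lower). After median centring of each array, 460 genes were called higher and 267 lower, against 435 and 398 as deposited. Lss encodes lanosterol synthase, which closes the sterol ring. It was at 10.18, 10.01, 9.92 and 9.99 in siAirn-001.2 and at 10.08, 10.07, 10.01 and 10.15 in siAirn-001.1, against 10.20 to 10.57 (median 10.27) in siScramble. All 8 siAirn arrays lay below all siScramble arrays, as for 0.738% of all genes. Lss fell by 0.27 ± 0.07 (adjusted p = 0.0282 in limma). Leaving out siScramble array 1, 2, 3 or 4 moved the adjusted p above the threshold (0.0805, 0.0589, 0.0580 and 0.0577 in limma), as did leaving out siAirn-001.2 array 3 (0.0506) and centring the arrays on their medians (0.0520). A fit chosen after the data were seen moved it further, to 0.0753 in limma.

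Ebp was at 10.76, 10.76, 10.84 and 10.89 in siAirn-001.2, all above the siScramble arrays, as for 1.73% of all genes (difference 0.29 ± 0.07, adjusted p = 0.0578 in limma). With the siAirn-001.1 values above, the mean rise was 0.28 ± 0.06 (adjusted p = 0.0122 in limma). Dgat2 was at 8.30, 8.23, 8.35 and 8.35 in siAirn-001.2, and its mean rise was 0.28 ± 0.06 (adjusted p = 0.0216 in limma). All 8 siAirn arrays lay above all siScramble arrays for Dgat2, as for 0.891% of all genes. Ebp passed whichever array was left out, and Dgat2 was lost without siScramble array 2 (adjusted p = 0.0511 in limma), where Ebp was the 1 member called, and with only siAirn and siScramble as 2 groups (0.0511), the replicate block (0.0692) and without siScramble arrays 5 and 6 (0.0796). Dgat2 was also lost in a fit chosen after the data were seen. Without siScramble array 2, 404 of all genes were called for the mean, against 833 with all arrays. The authors' deposited table, which sets the 8 siAirn arrays as 1 group against siScramble, lists Ebp at an adjusted p of 0.0230, Lss at 0.0622 and Dgat2 at 0.0943. The median log2 difference was -0.06 in the sterol arm and 0.06 in the lipogenic arm, beside 0.00 over all genes. Over the other settings these medians ran from -0.12 to 0.08 and from 0.02 to 0.10. The sterol one was above 0 only without siAirn-001.2 arrays 3 and 4, a fit chosen after the data were seen.

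Set against each other, the reagents differed in 1 member. Cyp51, the demethylase that acts first on lanosterol, was lower with siAirn-001.2 than with siAirn-001.1, and 1.01% of all genes were called in this contrast, 0.332% higher and 0.674% lower. After median centring of each array, 45 genes were called higher and 171 lower, against 67 and 136 as deposited. It was at 10.97, 10.91, 10.36 and 10.46 in siAirn-001.2 arrays 1 to 4 and at 11.38, 11.23, 11.04 and 11.24 in siAirn-001.1 arrays 1 to 4. The groups did not overlap, with arrays 3 and 4 of siAirn-001.2 lowest. The cardiomyocyte and endothelial marker means were likewise lower in every siAirn-001.2 array than in any siAirn-001.1 array (11.2 to 11.4 against 11.5 to 11.7, and 6.84 to 6.97 against 7.01 to 7.18), and their part in this contrast was not tested. The log2 difference of Cyp51 was -0.55 ± 0.12 (adjusted p = 0.0432 in limma, and exact two-sided permutation p = 0.0286, the smallest that 4 against 4 unpaired arrays can give). The permutation took the arrays as unpaired, though same-numbered siAirn arrays deviated together. The adjusted p rose above the threshold in 11 of 14 fits with 1 array left out. It was highest, 0.178, without siAirn-001.2 array 3 or array 4 (differences of -0.44 and -0.48). It lay between 0.0551 and 0.115 without any 1 of the siAirn-001.1 arrays, and between 0.0513 and 0.0653 without siScramble array 1, 2, 3, 4 or 6. In a fit chosen after the data were seen, without siAirn-001.2 arrays 3 and 4, the difference was -0.28 (adjusted p = 0.677 in limma).

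In this contrast 18 of 19 sterol and 14 of 17 lipogenic members lay below 0, with medians of -0.16 and -0.14, beside 0.01 and 47.1% below 0 over all genes. An unadjusted p under 0.05 was reached by 14 of the 36 members, against 13.4% of all genes. Among them Fasn was higher with siAirn-001.2 and the others lower. In 4 members, Cyp51, Tm7sf2, Acss2 and Scd2, every siAirn-001.2 array lay below every siAirn-001.1 array, as for 3.30% of all genes. The opposite order held for none of the members and 2.23% of all genes. Tm7sf2, a sterol reductase, was at 7.47, 7.72, 7.15 and 7.15 in siAirn-001.2 and at 7.92, 7.79, 7.80 and 7.94 in siAirn-001.1, against 7.09 to 7.71 (median 7.50) in siScramble. The reagents differed in it by -0.48 ± 0.14 (adjusted p = 0.105 in limma), and siAirn-001.1 lay above siScramble by 0.40 ± 0.13 (adjusted p = 0.0697 in limma). Elovl5, which elongates polyunsaturated fatty acids, was at 11.77, 11.72, 11.19 and 11.21 in siAirn-001.2 and at 12.00, 12.00, 11.66 and 11.69 in siAirn-001.1, against 11.51 to 11.69 (median 11.61) in siScramble (reagent difference -0.36 ± 0.13, adjusted p = 0.202 in limma). Acss2, at 9.94, 9.72, 9.54 and 9.59 in siAirn-001.2, differed by -0.28 ± 0.08 (adjusted p = 0.125 in limma). Nsdhl, at 12.08, 12.07, 11.77 and 11.71 in siAirn-001.1, differed by -0.53 ± 0.18 (adjusted p = 0.175 in limma).

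Array by array, the sterol arm of siAirn-001.2 arrays 3 and 4 stood apart. Below the lowest siScramble array lay 4, 4, 13 and 12 of 19 sterol genes in siAirn-001.2 arrays 1 to 4, where the shares of all genes were 19.7%, 17.0%, 18.6% and 22.9%. In siAirn-001.1 arrays 1 to 4 the counts were 3, 2, 4 and 1, beside 26.8%, 18.0%, 21.0% and 22.9% of all genes. Above the highest siScramble array lay 2, 4, 1 and 1 sterol genes in siAirn-001.2 (all genes 14.4%, 24.6%, 17.3% and 15.4%) and 12, 9, 4 and 8 in siAirn-001.1 (all genes 20.0%, 21.1%, 22.0% and 19.1%). The median difference of the sterol arm to the siScramble mean was -0.01, 0.02, -0.38 and -0.24 in siAirn-001.2 arrays 1 to 4, and 0.21, 0.12, 0.00 and 0.07 in siAirn-001.1. In the lipogenic arm these medians were 0.12, 0.02, -0.09 and -0.05 in siAirn-001.2 and 0.07, 0.10, 0.06 and 0.11 in siAirn-001.1. Its counts below the siScramble range were 0, 3, 8 and 6 of 17 in siAirn-001.2 and 3, 2, 0 and 1 in siAirn-001.1, and above it 9, 6, 2 and 2 and 7, 8, 6 and 8.

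Ebp was the 1 sterol gene above the siScramble range in siAirn-001.2 arrays 3 and 4. Airn was low in arrays 3 and 4 of both reagents (41.4% and 45.5% of the siScramble mean in siAirn-001.2, 48.4% and 48.3% in siAirn-001.1). In those arrays 13 and 12 of 19 sterol genes lay below the siScramble range with siAirn-001.2, and 4 and 1 with siAirn-001.1. The sterol median was also lower in siAirn-001.1 arrays 3 and 4 (0.00 and 0.07) than in its arrays 1 and 2 (0.21 and 0.12). The part of Airn in this pattern was not tested. The difference between arrays 3 and 4 and arrays 1 and 2 was read from the values and carries no test.

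**Figure D3:**
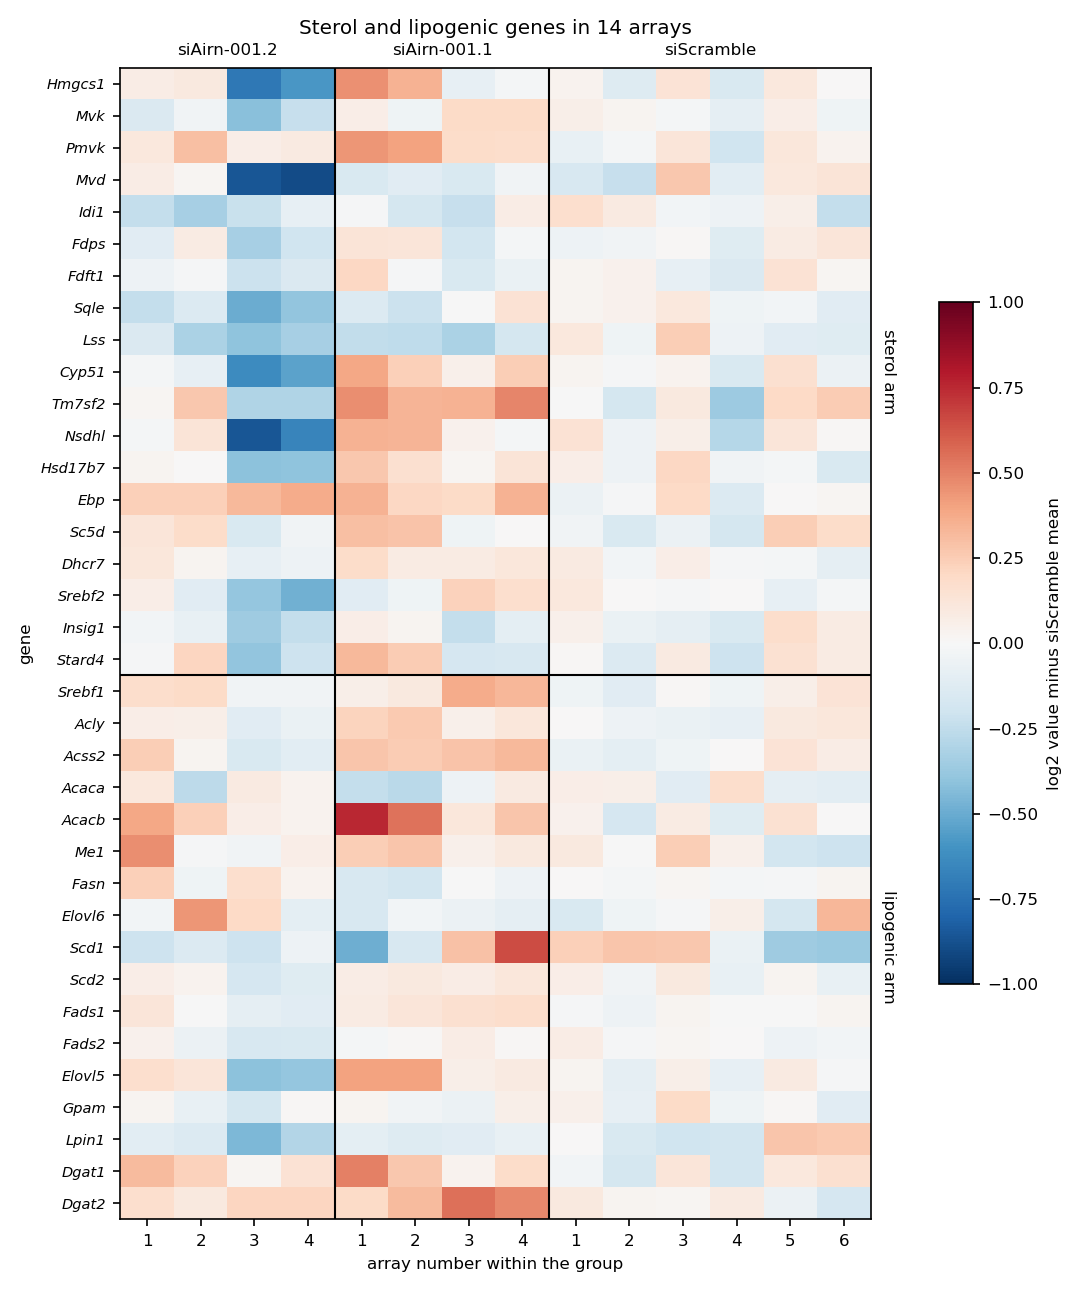
Log2 value of each of the 36 members in each of the 14 arrays minus the gene's siScramble mean, with siAirn-001.2, siAirn-001.1 and siScramble from left to right and the sterol arm above the lipogenic arm. Blue marks lower and red higher values. In siAirn-001.2 arrays 3 and 4, 13 and 12 of 19 sterol genes lay below the siScramble range, and Ebp lay above it in every siAirn-001.2 array.

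Arrays of the 2 siAirn reagents with the same number deviated together across all genes, so they can be set side by side as pairs. Subtracting the siAirn-001.1 array from the siAirn-001.2 array of the same number gave sterol medians of -0.23, -0.06, -0.23 and -0.18 for numbers 1 to 4, with 16, 15, 17 and 18 of 19 genes below 0. Over all genes the share below 0 was 47.1%, 45.8%, 51.2% and 50.9%. In the lipogenic arm the medians were 0.00, -0.06, -0.23 and -0.22, with 9, 12, 14 and 16 of 17 below 0. In 21 members, 12 sterol and 9 lipogenic, siAirn-001.2 was lower in every pair, as for 12.6% of all genes. Cyp51 differed by -0.41, -0.32, -0.67 and -0.78 in pairs 1 to 4, Hmgcs1 by -0.38, -0.25, -0.63 and -0.57, and Nsdhl by -0.37, -0.21, -0.90 and -0.64. Mvd changed side between the pairs, at 0.23, 0.13, -0.70 and -0.86.

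**Figure D4:**
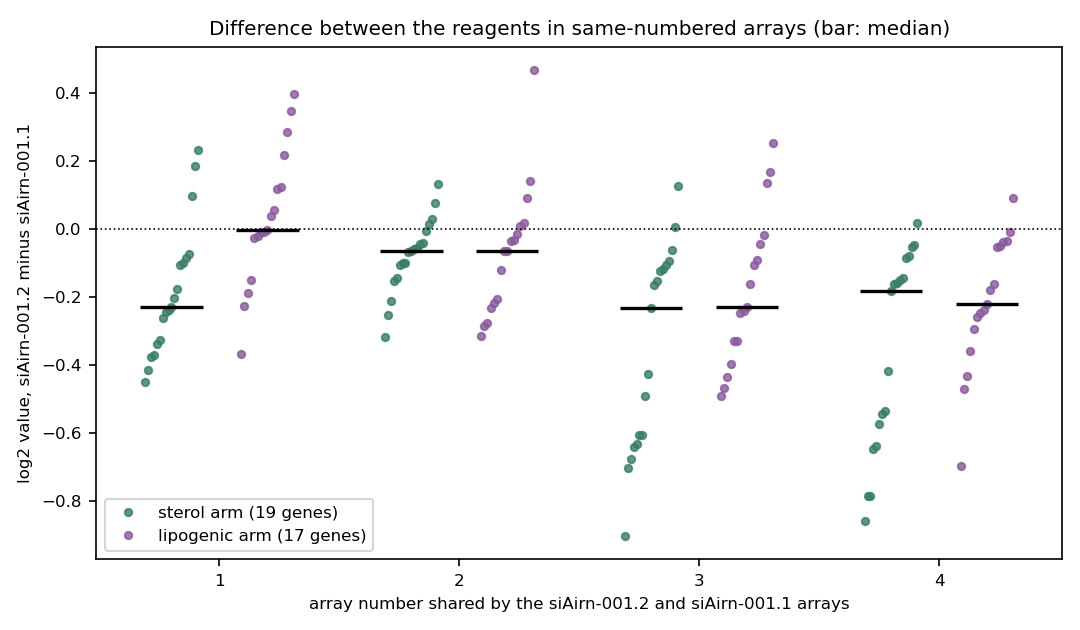
Log2 value in the siAirn-001.2 array minus that in the siAirn-001.1 array of the same number, for 19 sterol and 17 lipogenic genes. Points are genes and bars their medians: -0.23, -0.06, -0.23 and -0.18 for the sterol arm and 0.00, -0.06, -0.23 and -0.22 for the lipogenic arm.

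The regulators themselves did not pass in any of the 4 contrasts. Srebf2 was at 11.17, 10.99, 10.72 and 10.62 in siAirn-001.2 arrays 1 to 4 and at 10.99, 11.06, 11.33 and 11.27 in siAirn-001.1, against 11.02 to 11.21 (median 11.10) in siScramble. Arrays 3 and 4 thus lay below the siScramble range with siAirn-001.2 and above it with siAirn-001.1. The reagent difference was -0.28 (95% confidence interval -0.51 to -0.05, adjusted p = 0.247 in limma). Srebf1 was at 10.45, 10.46, 10.24 and 10.24 in siAirn-001.2 and at 10.33, 10.37, 10.64 and 10.60 in siAirn-001.1, against 10.16 to 10.41 (median 10.25) in siScramble. Its reagent difference was -0.14 (-0.32 to 0.05, adjusted p = 0.580 in limma). In siAirn-001.1 it was highest in arrays 3 and 4, and that group lay above siScramble by 0.21 (0.04 to 0.38, adjusted p = 0.148 in limma).

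Insig1, both a target of the SREBPs and the protein that retains them, was at 12.87, 12.82, 12.54 and 12.66 in siAirn-001.2 and at 12.96, 12.92, 12.66 and 12.80 in siAirn-001.1, against 12.74 to 13.07 (median 12.89) in siScramble. It differed from siScramble by -0.17 (-0.36 to 0.01) with siAirn-001.2 and by -0.06 (-0.24 to 0.12) with siAirn-001.1 (adjusted p = 0.482 and 0.824 in limma). In a fit chosen after the data were seen, without the 3 siAirn arrays whose Airn lay inside the siScramble range, 5 members were lower with siAirn-001.2 than with siAirn-001.1: Srebf2 (-0.52, adjusted p = 0.0135 in limma), Cyp51, Mvk, Sqle and Acss2. That fit called 999 of all genes in this contrast, against 203 with all arrays, and compared siAirn-001.2 arrays 2 to 4 with siAirn-001.1 arrays 3 and 4.

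The remaining members gave no call in any contrast with all arrays at equal weight in the 3-group fit. With array weights Hsd17b7 was also called between the reagents, and Dgat1 for siAirn-001.1 and the mean. In the sterol arm these included the isoprenoid enzymes Idi1, Fdps and Fdft1, with differences of -0.22, -0.14 and -0.11 for siAirn-001.2 and -0.09, 0.01 and -0.01 for siAirn-001.1. Mvk, the mevalonate kinase, lay at -0.21 with siAirn-001.2 and at 0.10 with siAirn-001.1, and the reductase Hsd17b7 at -0.20 and 0.14. Between the reagents these genes differed by -0.30 ± 0.08 and -0.34 ± 0.11 (adjusted p = 0.0978 and 0.157 in limma).

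The late enzymes Sc5d and Dhcr7 and the cholesterol carrier Stard4 lay between -0.10 and 0.03 with siAirn-001.2 and between 0.06 and 0.14 with siAirn-001.1. Fasn, the fatty acid synthase, differed by 0.10 ± 0.06 with siAirn-001.2 and by -0.10 ± 0.06 with siAirn-001.1 (adjusted p = 0.681 and 0.481 in limma). Elovl6, which elongates saturated fatty acids, lay at 0.13 and -0.08 (adjusted p = 0.816 and 0.801 in limma). It had the lowest mean level of the members, 6.09 beside a median of 7.48 over all genes. Acaca, the cytosolic acetyl-CoA carboxylase, lay at -0.01 and -0.12. Dgat1, the other enzyme of the last triglyceride step, was at 0.18 ± 0.10 and 0.25 ± 0.10 (adjusted p = 0.566 and 0.171 in limma), and Me1, the malic enzyme that supplies NADPH, at 0.12 and 0.17. The desaturases Fads1 and Fads2 and the acyltransferase Gpam lay between -0.08 and -0.02 with siAirn-001.2 and between 0.00 and 0.13 with siAirn-001.1. For Acly, the citrate lyase that supplies cytosolic acetyl-CoA, the values were -0.01 ± 0.07 and 0.16 ± 0.07. The stearoyl-CoA desaturase genes Scd1 and Scd2 encode close paralogs, and the sources used here do not say whether their probes are specific. Scd1 and Elovl6 were the 2 members below the median of all genes. Scd1 spread from 5.64 to 6.78 in siAirn-001.1 and from 5.76 to 6.41 in siScramble, and from 5.92 to 6.08 in siAirn-001.2.

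Genes around these pathways were taken as 4 lists. With siAirn-001.1 the calls were 2 of 12, 0 of 4, 2 of 13 and 1 of 18 measured genes, beside 5.96% of all genes; for the mean they were 1, 0, 2 and 1, beside 4.13%, and with siAirn-001.2 0, 0, 0 and 1, beside 0.951%. Of the 12 measured genes of SREBP processing and its partners, 2 rose with siAirn-001.1, the sterol-sensing nuclear receptor genes Nr1h3 (0.37 ± 0.09, adjusted p = 0.0254 in limma) and Nr1h2 (0.31 ± 0.08, adjusted p = 0.0310), and Erlin2, of a complex that degrades sterol-regulated proteins, fell for the mean of both reagents (-0.29 ± 0.08, adjusted p = 0.0465). None of 4 other measured sterol synthesis enzymes was called in any contrast. Of 13 genes of sterol uptake, trafficking, storage and efflux, Soat1, which esterifies cholesterol, fell with siAirn-001.1 and for the mean (-0.37 and -0.35, adjusted p = 0.0130 and 0.00927 in limma). Scarb1, the receptor for high-density lipoprotein, rose in both (0.30 and 0.23, adjusted p = 0.00662 and 0.0147 in limma). Of 18 other genes of lipid synthesis and storage, 1 was called: Pnpla2, the triglyceride lipase, rose by 0.31 ± 0.06 with siAirn-001.2, by 0.45 ± 0.06 with siAirn-001.1 and by 0.38 ± 0.05 for the mean (adjusted p = 0.0311, 0.000667 and 0.000786 in limma). No gene of these 4 lists was called between the reagents. The list medians of that contrast were -0.06, -0.07, -0.15 and -0.07, in the order given, beside 0.01 over all genes.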

How the data were processed

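HL-1 cells were profiled on 14 arrays in 3 groups, matched to the table's columns by name. The authors deposited log2 expression values; the submitters' processing notes name RMA and limma and give no version or role for either. RMA equalises array distributions and damps differences of dim probes. The array model is not given in the sources used. Per the file headers, further columns of the deposited table are the authors' comparison of siAirn with siScramble: a log2 difference with its p-value and an adjusted p-value. A second deposited table equals the first to within 0.005. Nothing was rescaled or filtered before the fit.

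With limma 3.58.1 in R 4.3.3, the means of the 3 groups were fitted for each of 20193 genes (11 residual degrees of freedom), with Benjamini-Hochberg adjustment over all genes of a contrast and a two-sided threshold of 0.05. The fit was tested on simulated data. Errors after a log2 difference are standard errors. Exact permutation tests used scipy 1.17.1. The number of arrays limits precision: the median SE was 0.0876 for a single reagent. The siScramble arrays are shared by both reagents' comparisons, so these are not independent.

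The members, the other lists and the tests were chosen with earlier results of these data known. Values are given array by array for called members, Srebf1, Srebf2, Insig1 and, per arm and contrast, the 2 largest differences; others, with Hmgcs1 and Sqle, were named after their values were seen. Same-numbered arrays of the siAirn reagents correlated at 0.32 to 0.53 in their deviations from group means. Among the arrays of the other siAirn reagent, each of these 8 arrays correlated best with its own number. The siScramble arrays did not pair with the same-numbered siAirn arrays (-0.43 to 0.23). Some siAirn arrays correlated more with a siScramble array of another number, up to 0.58 for siAirn-001.2 array 2 with siScramble array 6. Other settings were the replicate block, median centring, a level filter, a robust trend, array weights, only the arrays compared, the rounded table, and arrays left out.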

Additional observations from a re-analysis of the deposited data

Results flagged for a closer look

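Pmvk in siAirn-001.2 array 2 stood apart from the other arrays of its group, at 8.59 against 8.39 for the next highest. It was the 1 such case among 108 gene and group combinations of the 36 members, where about 1 in 20 would be expected by chance. Cyp51 differed between the reagents by a direct test of their difference, at -0.55 on the log2 scale (lower with siAirn-001.2, adjusted p = 0.0432 in limma). The spread in that test came from all 3 groups. In an unpaired fit of only the arrays compared, the adjusted p of Cyp51 was 0.214 in limma. With the replicate block it was 0.0275 in limma. It rose above the threshold in 11 of 14 fits with 1 array left out.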

How the results depend on the processing

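The counts of members called were 5 for siAirn-001.1 against siScramble, 0 for siAirn-001.2, 3 for the mean of both and 1 between the reagents. With 1 array left out they ran from 1 to 6, from 0 to 1, from 1 to 4 and from 0 to 4. For siAirn-001.2 the count was 1 with the replicate block, 1 without the 25% of genes with the lowest levels, 1 without siScramble arrays 5 and 6, and 4 with array weights. For the mean it was 7 with array weights and 1 in the authors' deposited table (Ebp). Between the reagents it was 2 with array weights, 0 with only the arrays compared and 0 without siScramble arrays 5 and 6. In fits chosen after the data were seen, it was 3 for siAirn-001.1 and 5 between the reagents without the 3 siAirn arrays whose Airn lay inside the siScramble range, and 0 between the reagents without siAirn-001.2 arrays 3 and 4. Fewer arrays enter the fits that leave arrays out; otherwise the cause was not tested. Among all genes, 1203, 192, 833 and 203 were called in the 4 contrasts in the order above, while the replicate block gave 1845, 563, 1550 and 293. Array weights gave 1906, 969, 1927 and 509. With only the arrays compared, 548 were called for the mean and 25 between the reagents, and 413 for siAirn-001.2 without siScramble arrays 5 and 6. Without siAirn-001.2 arrays 3 and 4, 76 genes were called for siAirn-001.2 and 1 between the reagents. With 1 array left out, all-gene counts ran from 770 to 1259, from 46 to 254, from 378 to 981 and from 20 to 571. Without the 3 siAirn arrays above, 999 were called between the reagents.

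Same-numbered siAirn arrays deviated together, though the labels do not say what a number shares across groups. If they are taken as pairs, the replicate block applies to the contrast between the reagents. There Cyp51 was the 1 member called in the block fit and in a block fit of the 8 siAirn arrays alone. The siScramble arrays share only a number with the others. With that block, 6 members were called for siAirn-001.1 (Acacb, Acss2, Dgat2, Pmvk and Tm7sf2 higher, Lss lower) and 3 for the mean (Acacb and Ebp higher, Lss lower). No called difference changed sign under any setting. The sterol median between the reagents ran from -0.28 to -0.08 and that of siAirn-001.2 against siScramble from -0.23 to 0.02 over all settings.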
